A study of Mus musculus with 10 samples.

Results

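The Ifit, Mx and Rsad2 antiviral effectors are 9 genes of the type I interferon programme, measured here in neutrophils sorted from mouse squamous cell carcinomas. The members were the rows of the deposited count table whose Ensembl identifiers carry the symbols Ifit1, Ifit2, Ifit3, Ifit3b, Ifit1bl1, Rsad2, Cmpk2, Mx1 and Mx2 in the GENCODE M21 annotation. All 9 were found among 55385 gene identifiers, and 8 of them reached a mean of 5 CPM, the level at which genes were tested. CPM are counts scaled to the library's size. Mx2 did not reach it. The symbols and not the measured values chose the genes.

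RNA was sequenced in bulk from 10 libraries of Tomato-positive neutrophils. The tumours grew from squamous cell carcinoma cells grafted onto CatchupIVM-red mice, in which a red Tomato reporter is driven from the Ly6g locus of neutrophils, and every group shares that host. The library descriptions also carry the tag C57 in all groups and the tag GFP in the control graft, which the labels do not explain. The control graft was the parental Sox2low line and the other graft was the Sox2Hi line. Sox2 encodes a transcription factor that maintains stem cells. Naive tumours were untreated, and treated tumours received an antibody against PDL1 together with an agonist of CD40, an immunotherapy combination. Each graft had 3 naive and 2 treated libraries, and the labels give no age, no dose and no time. The labels do not say whether replicates of a group came from separate mice, so the p-values measure the spread between these libraries, which may be technical. The question posed is whether tumour cells with high Sox2 dampen how neutrophils respond to interferons.

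Interferons of type I bind the receptor formed by Ifnar1 and Ifnar2, whose kinases Jak1 and Tyk2 set off assembly of the ISGF3 complex. That complex, which includes Stat2 and Irf9, binds interferon-stimulated response elements in promoters. The Ifit genes encode tetratricopeptide-repeat proteins that bind viral RNA or the translation machinery. Rsad2 encodes viperin, a radical SAM enzyme that turns CTP into a chain-terminating nucleotide, and its neighbour Cmpk2 encodes a mitochondrial kinase of nucleoside monophosphates that supplies CTP. The Mx genes encode dynamin-like GTPases that bind incoming viral nucleocapsids, and in many inbred laboratory mouse strains they carry inactivating changes. In neutrophils this programme is a common readout of interferon exposure.

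The members lie in 3 clusters in GRCm38. The Ifit genes occupy chromosome 19 from 34550694 to 34650009, Rsad2 and Cmpk2 chromosome 12 from 26442746 to 26479837, and the Mx genes chromosome 16 from 97447035 to 97560900. Rsad2 and Cmpk2 are transcribed away from each other, with 12752 bases between their starts. All are annotated as protein coding except Mx2, which is annotated as a polymorphic pseudogene. Promoters are shown because several of them hold a short motif of interferon-stimulated genes and others do not. Whether the motif goes with the size of a change was not tested. RefSeq's promoter table (GRCm38.p6) held 7 of the 9 members, without Mx1 and Mx2. Each stretch below runs on the gene's own strand and ends 21 bases before its RefSeq start. It begins 200 bases before the start, or 140 bases for Ifit1, beyond which a divergent gene, Ifit1bl2, begins. Capitals mark the core of the interferon-stimulated response element, searched on both strands as GAAA, any 2 bases and GAAA, which reads TTTC, any 2 bases and TTTC on the other strand. The stretches are chr19:34640749-34640868, chr19:34583329-34583508, chr19:34607757-34607936 and chr19:34550494-34550673 on the plus strand, chr19:34601989-34602168 and chr12:26456473-26456652 on the minus strand, and chr12:26469015-26469194 on the plus strand.
Ifit1: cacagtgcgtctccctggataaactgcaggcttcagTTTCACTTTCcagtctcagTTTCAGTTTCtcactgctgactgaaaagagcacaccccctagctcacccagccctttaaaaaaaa
Ifit3: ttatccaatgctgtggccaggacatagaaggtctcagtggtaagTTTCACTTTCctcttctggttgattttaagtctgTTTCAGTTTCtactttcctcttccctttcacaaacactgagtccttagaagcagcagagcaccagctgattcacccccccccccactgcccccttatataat
Ifit3b: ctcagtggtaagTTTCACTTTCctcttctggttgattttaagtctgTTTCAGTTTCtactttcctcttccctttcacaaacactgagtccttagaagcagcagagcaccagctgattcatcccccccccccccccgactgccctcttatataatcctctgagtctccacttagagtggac
Ifit1bl1: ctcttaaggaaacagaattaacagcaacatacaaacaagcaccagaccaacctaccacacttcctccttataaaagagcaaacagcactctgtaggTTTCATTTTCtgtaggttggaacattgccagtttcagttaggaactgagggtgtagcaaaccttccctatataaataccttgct
Rsad2: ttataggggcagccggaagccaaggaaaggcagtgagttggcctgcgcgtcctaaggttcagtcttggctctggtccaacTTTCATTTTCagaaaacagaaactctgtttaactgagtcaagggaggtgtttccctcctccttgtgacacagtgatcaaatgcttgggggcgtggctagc
Ifit2: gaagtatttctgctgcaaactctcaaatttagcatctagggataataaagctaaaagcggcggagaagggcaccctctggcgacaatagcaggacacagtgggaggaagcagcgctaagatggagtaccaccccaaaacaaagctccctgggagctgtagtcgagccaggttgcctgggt
Cmpk2: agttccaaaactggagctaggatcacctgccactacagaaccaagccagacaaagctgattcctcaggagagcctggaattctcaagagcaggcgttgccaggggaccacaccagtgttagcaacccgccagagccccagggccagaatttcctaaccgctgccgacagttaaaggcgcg

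Over the whole window of the table, from 250 bases before to 50 bases after the start, 5 of the 7 members held a match, against 3.44% of 32851 windows and 3.99% of 27025 genes. Ifit1 held 2 matches, which began 104 and 85 bases before its start as TTTCACTTTC and TTTCAGTTTC. The same pair of words stood 156 and 122 bases before the start of Ifit3, and 188 and 154 bases before that of Ifit3b. The windows of Ifit3 and Ifit3b shared a run of 169 identical bases, and 259 of the 260 bases that align between them, gaps left out, were identical. Ifit1bl1 and Rsad2 shared a different word, TTTCATTTTC, at 104 and 120 bases. No match was found in the windows of Ifit2 and Cmpk2, which says only that these letters are not there. The shorter word GAAA, any 2 bases and GAA, which the longer contains, was in 8.56% of windows and in the same number of members, 5. Among the other antiviral effectors and interferon-inducible GTPases listed further on, 22 of the 36 genes in the table held the longer motif. A match describes the sequence and does not show a bound site.

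Library totals ran from 13815734 to 22986193 gene counts. CPM values are relative to the counts of the 11274 tested genes, after TMM scaling. Defining neutrophil transcripts were present in every library: the summed level of 15 markers, among them Il1r2, S100a8, S100a9 and Trem1, was 13537 to 22234 CPM in control naive and 40736 to 42506 in control treated. In the Sox2Hi grafts the sum was 12642 to 18065 CPM in naive and 22479 to 22764 in treated libraries. Il1r2 alone averaged 12019 CPM before and 17463 CPM after treatment with the control graft, against 10217 and 11420 CPM with the Sox2Hi graft, and was called in none of the 5 comparisons. Ly6g, the reporter's locus, was at only 2.47 and 14.6 CPM in control naive and treated libraries on average, and 135 to 514 reads of tdTomato were counted per library. Reads over silent olfactory and vomeronasal receptor genes gave an expected background of 5.02% to 8.37% of counts in naive and 1.58% to 1.74% in treated libraries of the control graft. In the Sox2Hi graft it was 3.63% to 3.92% in naive and 4.04% to 4.96% in treated libraries. Because that background differs between groups, the scaling used here came from expressed genes. An all-gene scaling, from 29648 lightly filtered genes, is given beside it for the main counts.

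Treatment raised 6 of the 8 tested members in each graft: Ifit1, Ifit2, Ifit3, Ifit1bl1, Rsad2 and Cmpk2. The rises ran from 2.59-fold in Ifit1 to 6.55-fold in Ifit2 in control tumours and from 2.62-fold to 5.40-fold in the same 2 genes in Sox2Hi tumours. Ifit3b and Mx1 did not pass the test in either graft. The values of each gene follow by role, and the plot of CPM by library shows all 9.

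**Figure D1:**
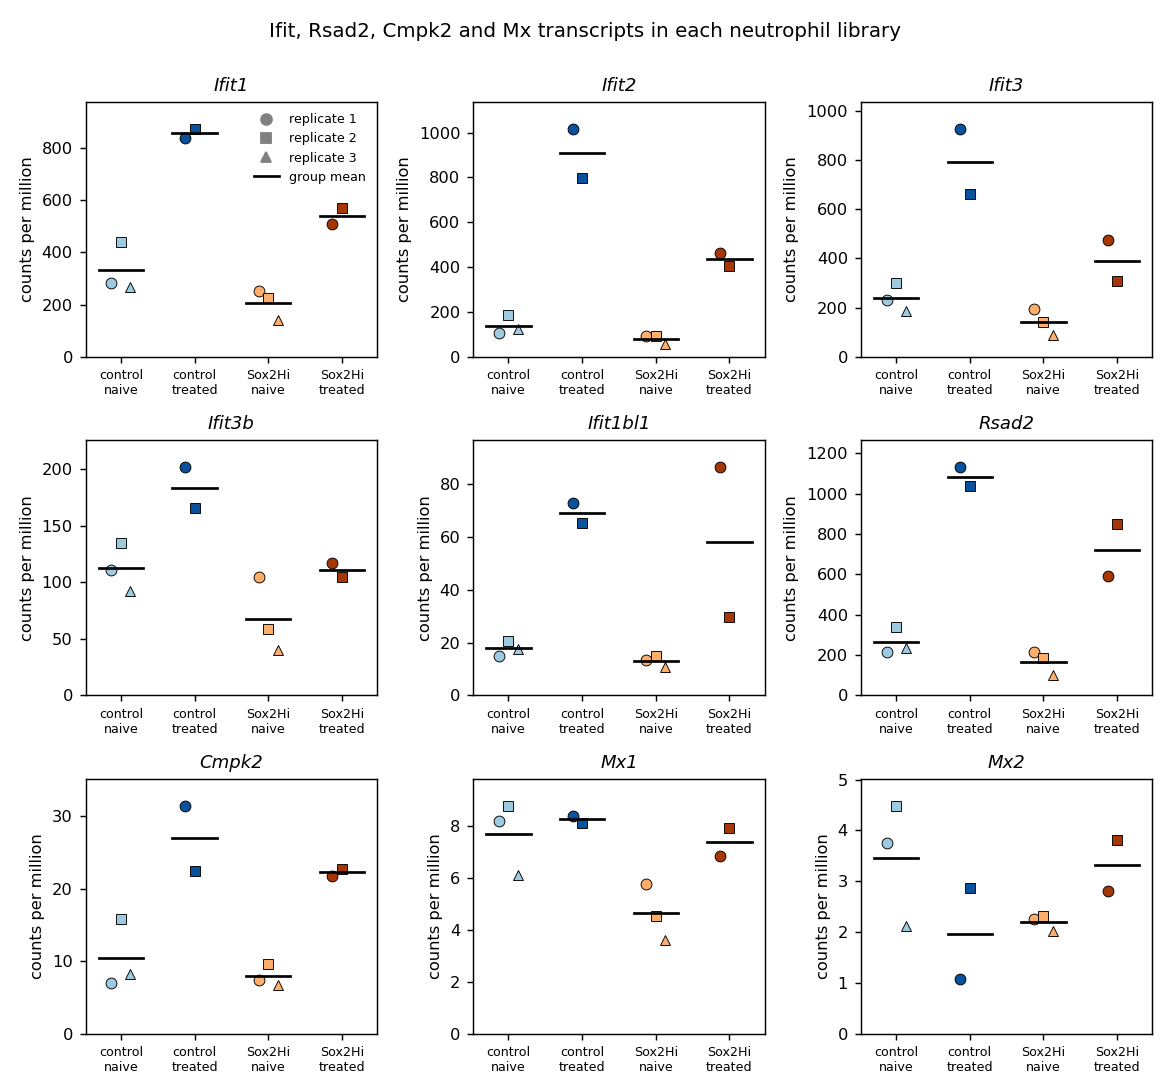
Each panel plots the CPM of a gene on a linear axis from 0, by group, with 1 point per library, shapes for replicate numbers and a bar at the group mean (n = 3 or 2). The treated libraries of Ifit1, Ifit2, Ifit3, Ifit1bl1, Rsad2 and Cmpk2 sit above all naive libraries of their graft, and Mx2 stays under 5 CPM throughout.

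Ifit1 (ENSMUSG00000034459), which binds RNA caps that lack the marks of host messages, was at 284, 441 and 269 CPM in control naive libraries and at 839.7 and 874 CPM in control treated libraries. In Sox2Hi tumours it was at 250.3, 225 and 142 CPM in naive and 509 and 572 CPM in treated libraries. Treated and naive libraries did not overlap in either graft. The change was 1.37 on the log2 scale (SE 0.26) in control tumours, or 2.59-fold (95% interval 1.74 to 3.83), with an adjusted p of 0.0014. These p-values come from edgeR's quasi-likelihood F-test and are adjusted by the Benjamini-Hochberg method over all 11274 genes. In Sox2Hi tumours it was 1.39 (SE 0.26; edgeR adjusted p = 0.0069), and without Sox2Hi treated replicate 2 that call was lost (edgeR adjusted p = 0.10).

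Ifit2 (ENSMUSG00000045932), a partner of the other Ifit proteins in RNA-binding complexes, had the largest rise of the 8. It was at 104, 188 and 124 CPM in control naive and at 1017 and 799 CPM in control treated libraries. Its Sox2Hi libraries were at 92.3, 93.5 and 55.5 CPM in naive and 461 and 407 CPM in treated libraries. Every treated library stood above every naive library. The change was 2.71 (SE 0.28; edgeR adjusted p = 9.5e-05) in control tumours and 2.43 (SE 0.28; edgeR adjusted p = 0.00062) in Sox2Hi tumours, which is 5.40-fold (95% interval 3.52 to 8.26).

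Ifit3 (ENSMUSG00000074896), which stabilises the complexes of the other Ifit proteins, was at 229, 298 and 187 CPM in control naive and at 926 and 660.1 CPM in control treated libraries. With the Sox2Hi graft it was at 192, 142 and 90.2 CPM in naive and at 473 and 307 CPM in treated libraries. The groups did not overlap. It rose by 1.74 (SE 0.31; edgeR adjusted p = 0.0012) in control and by 1.46 (SE 0.31; edgeR adjusted p = 0.012) in Sox2Hi tumours. The second call was lost without Sox2Hi treated replicate 1 or 2, where 1 treated library was left and assumed to vary like the other groups, and with no filter on low counts.

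Ifit3b (ENSMUSG00000062488), a close copy of Ifit3, was at 111, 135 and 92.1 CPM in control naive and 202 and 166 CPM in control treated libraries. Its Sox2Hi libraries were at 105, 58.6 and 40.1 CPM in naive and at 117 and 105 CPM in treated libraries. The lowest treated value in Sox2Hi tumours, 105.04 CPM, was barely above the highest naive value, 104.66 CPM. The change was 0.71 (SE 0.32) in each graft, with edgeR adjusted p-values of 0.080 and 0.12. In control tumours the 95% interval ran from 1.00-fold to 2.66-fold, and 9 of 24 alternative settings called it. In Sox2Hi tumours 1 of 24 called it, the fit without Sox2Hi naive replicate 1. The transcripts of Ifit3 and Ifit3b share 61.8% and 54.1% of their 31-base words, so the split of reads between them is uncertain.

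Ifit1bl1 (ENSMUSG00000079339), an Ifit1-like gene, was at 14.8, 20.7 and 17.7 CPM in control naive and 72.8 and 65.3 CPM in control treated libraries. With the Sox2Hi graft it was at 13.5, 14.7 and 10.7 CPM in naive and 86.4 and 29.5 CPM in treated libraries. The Sox2Hi treated pair was widely spread around its mean, and its higher library exceeded both control treated libraries. It rose by 1.96 (SE 0.35; edgeR adjusted p = 0.0011) in control and by 2.16 (SE 0.35; edgeR adjusted p = 0.0038) in Sox2Hi tumours. Without Sox2Hi treated replicate 1, the higher library, the Sox2Hi rise was 1.19 (edgeR adjusted p = 0.014). Of its 31-base words, 19.3% occur in other Ifit genes. The annotation's further Ifit gene, Ifit1bl2, lies 128 bases from the start of Ifit1 on the opposite strand and is no member; it rose by 1.67 (SE 0.35; edgeR adjusted p = 0.0023) in control and 1.29 (SE 0.35; edgeR adjusted p = 0.026) in Sox2Hi tumours. As annotated, Ifit1 and Ifit1bl2 do not overlap, but 9.16% of the 31-base words of Ifit1 occur in Ifit1bl2. The counting is not stated to use strand, and the split of reads in shared words is uncertain.

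Rsad2 (ENSMUSG00000020641), encoding viperin, was at 216, 337 and 236 CPM in control naive and at 1130.1 and 1037 CPM in control treated libraries. Its Sox2Hi libraries were at 215, 184 and 98.9 CPM in naive and 589.9 and 851 CPM in treated libraries. All 4 treated libraries exceeded all 6 naive libraries. It rose by 2.04 (SE 0.31; edgeR adjusted p = 0.00050), or 4.12-fold (95% interval 2.58 to 6.58), in control tumours. In Sox2Hi tumours it rose by 2.12 (SE 0.31; edgeR adjusted p = 0.0020), or 4.33-fold (95% interval 2.71 to 6.92).

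Cmpk2 (ENSMUSG00000020638), the kinase gene beside Rsad2, was measured at a far lower level. It was at 7.02, 15.9 and 8.27 CPM in control naive and at 31.4 and 22.5 CPM in control treated libraries. With the Sox2Hi graft it was at 7.43, 9.65 and 6.68 CPM in naive and 21.8 and 22.8 CPM in treated libraries. It rose by 1.38 (SE 0.31; edgeR adjusted p = 0.0037) in control and 1.49 (SE 0.31; edgeR adjusted p = 0.011) in Sox2Hi tumours, where the call was lost without Sox2Hi treated replicate 2 or Sox2Hi naive replicate 3. The expected background equalled 2.41% to 25.4% of its reads per library.

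Mx1 (ENSMUSG00000000386), a GTPase gene, was not called with treatment in either graft. It was at 8.18, 8.75 and 6.09 CPM in control naive and 8.38 and 8.10 CPM in control treated libraries, which overlap. Its Sox2Hi libraries were at 5.75, 4.52 and 3.59 CPM in naive and 6.82 and 7.91 CPM in treated libraries, which do not overlap. The change was 0.10 (SE 0.23; edgeR adjusted p = 0.71) in control tumours, a value below 0 with library totals, with factors from genes of at least 100 CPM and with the title number as a block. In the Sox2Hi graft it was 0.67 (SE 0.24; edgeR adjusted p = 0.064), and 3 of 24 alternative settings called it. Its counts ran from 71 to 136 per library, and the expected background equalled 7.75% to 26.8% of them. The all-gene scaling put the control change at 0.66 and called it (edgeR adjusted p = 0.028), as it did Ifit3b at 1.27, where 34.0% of genes were called and 18.7% called higher.

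Mx2 (ENSMUSG00000023341) had 15 to 64 reads per library, and the expected background equalled 20.96% to 60.8% of them. In the control graft it was at 3.75, 4.48 and 2.12 CPM in naive and 1.08 and 2.86 CPM in treated libraries. In the Sox2Hi graft it was at 2.26, 2.32 and 2.02 CPM in naive and 2.80 and 3.82 CPM in treated libraries. Control treated and naive libraries overlapped and those of Sox2Hi tumours did not, on counts this low. It was tested under the all-gene scaling, where its treatment changes were -0.19 (SE 0.38) in control and 0.32 (SE 0.36) in Sox2Hi tumours, neither of them called.

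Levels were ordered per kb of exon so that genes of different length can be compared. In control naive libraries Ifit3 was at 136 ± 32 CPM per kb and Ifit1 at 125 ± 36 (SD, n = 3), followed by Rsad2 at 60.7 ± 15, Ifit3b at 56.2 ± 11 and Ifit2 at 35.3 ± 11. Ifit1bl1 was at 7.85 ± 1.3, Cmpk2 at 2.50 ± 1.2, Mx1 at 2.03 ± 0.37 and Mx2 at 0.96 ± 0.33 CPM per kb. Across these libraries the ranges of Ifit3 and Ifit1, of Rsad2 and Ifit3b, of Ifit3b and Ifit2 and of Cmpk2 and Mx1 overlapped. Within each of the 3 libraries, though, Ifit3 was above Ifit1 and Ifit3b above Ifit2. The order of Rsad2 and Ifit3b, and of Cmpk2 and Mx1, changed from library to library. In treated libraries Ifit2 stood above Ifit3b, at 231 ± 39 against 91.8 ± 13 CPM per kb in control and 111 ± 9.7 against 55.6 ± 4.4 in Sox2Hi tumours (SD, n = 2). The other places in the order were the same in all 4 groups.

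Against the other genes, the count of 6 rises among 8 members in control tumours stands beside a background of 57.3% of genes called in either direction and 24.1% called higher. In Sox2Hi tumours 21.6% of genes were called, and 15.0% were called higher. The all-gene scaling called 8 of 9 members in control and 6 of 9 in Sox2Hi tumours, where it called 3.61% of genes and 1.79% higher. The median change of the 8 members was 1.56 in control and 1.48 in Sox2Hi tumours, against medians of -0.18 and 0.09 over all genes tested. Treated libraries stood above all naive libraries in 7 of 8 members in control tumours, where 29.6% of genes did so, and in 8 of 8 in Sox2Hi tumours, where 37.0% did. In single alternatives the count called in Sox2Hi tumours fell to 3 without Sox2Hi treated replicate 2 and rose to 8 without Sox2Hi naive replicate 1.

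**Figure D2:**
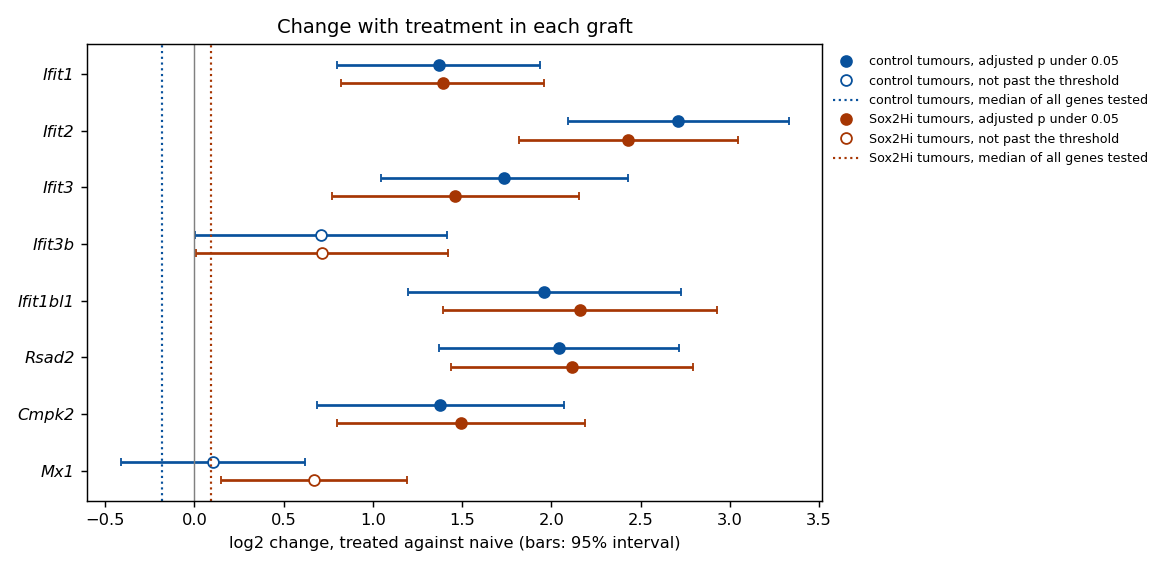
The plot gives the log2 change with treatment of each tested member (points) with its 95% interval (bars), in control tumours (blue) and Sox2Hi tumours (brown), and dotted lines at the median of all genes tested. In 6 members the points are filled (adjusted p under 0.05) in both grafts, and in Ifit3b and Mx1 they are open.

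Markers of other cells moved with treatment as well, and their part in the rises was not tested. Of the 15 neutrophil markers, 12 rose in control and 8 in Sox2Hi tumours. The summed level of 3 monocyte markers was 61.4 to 138 CPM in control naive and 641 to 730.0 in control treated libraries, and 70.7 to 97.2 against 228 to 449 in Sox2Hi tumours. Ly6c2, which is also interferon-inducible, was the largest of these at 427 CPM in control treated libraries. The 7 T and NK cell markers summed to 40.1 to 64.7 CPM in control naive and 98.0 to 342 in control treated libraries, and to 27.5 to 73.7 and 126 to 199 in Sox2Hi tumours. The 9 macrophage markers ran from 914 to 1356 CPM in control naive and from 1214 to 1850.3 in control treated libraries, and from 1261 to 1811 and 1045 to 1962 in Sox2Hi tumours. Dendritic cell markers, 6 in number, summed to 17.8 to 56.3 CPM over all libraries. The 6 keratinocyte markers ran from 983 to 2238 CPM in control naive and from 598 to 1055 in control treated libraries, and from 1617 to 2115 and 999 to 1458 in Sox2Hi tumours. The 5 fibroblast and endothelial markers ran from 159 to 449 and from 49.9 to 65.7 CPM in control, and from 237 to 376 and 71.6 to 143 in Sox2Hi tumours. The erythroid markers ran from 302 to 762 and from 25.7 to 154 CPM in control, and from 136 to 294 and 15.1 to 31.1 in Sox2Hi tumours, and both of the tested ones were called lower in each graft. The 3 mast cell markers summed to 18.3 to 115 CPM in control naive and 7.59 to 22.2 in control treated libraries, where Cpa3 was lower (-2.88, edgeR adjusted p = 0.026), and to 18.9 to 35.2 and 18.2 to 31.8 in Sox2Hi tumours. The 5 B and plasma cell markers summed to 61.1 to 121 and 35.3 to 121 CPM in control, and to 148 to 686 in naive and 24.2 to 117 in treated Sox2Hi tumours. Jchain, the most abundant of these, was at -2.32 with treatment in Sox2Hi tumours and did not pass (edgeR adjusted p = 0.086). No marker was at 0 in every library. In bulk RNA, a change in the share of a cell type and a change of RNA per cell cannot be told apart.

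Between the grafts, all 8 tested members were lower in Sox2Hi than in control neutrophils of naive tumours, by values from -0.78 in Ifit2 to -0.39 in Cmpk2, though Cmpk2 was at 0.0091 under the all-gene scaling. Only Mx1 passed the test. Mx1 averaged 7.68 ± 1.4 CPM in control naive and 4.62 ± 1.1 CPM in Sox2Hi naive libraries (SD, n = 3), a difference of -0.73 (SE 0.21; edgeR adjusted p = 0.045). Values of the other members moved when 1 library was left out. Without control naive replicate 2 Ifit1 was at -0.34, Ifit2 at -0.42, Ifit3 at -0.47, Ifit1bl1 at -0.25, Rsad2 at -0.36 and Cmpk2 at 0.13. Ifit3b ran from -0.46 without Sox2Hi naive replicate 3, which also put Rsad2 at -0.396, to -1.19 without Sox2Hi naive replicate 1, where it was called (edgeR adjusted p = 0.044). Without control naive replicate 3 Ifit1 was called at -0.82 (edgeR adjusted p = 0.049), and without control naive replicate 1 Cmpk2 was at -0.61. The libraries of Mx1 did not overlap between the grafts. Of all genes tested, 14.0% were called here and 11.9% were called lower, so 1 of 8 is near the background. The call of Mx1 was lost under 17 of 25 alternatives, and its edgeR adjusted p ran up to 0.60. Leaving out any library other than control naive replicate 3 or Sox2Hi naive replicate 1 ended it, with values from -0.73 to -0.54. Among the markers of cell types Krt8 alone was called in this comparison, higher in Sox2Hi by 0.91 (edgeR adjusted p = 0.017), and its part in the member values was not tested.

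Same-numbered naive libraries deviated from their group means together, at r of 0.334, 0.333 and 0.422, but no label explains the numbers. Between naive and treated libraries with the same title number, r ran from -0.32 to 0.28. The pairing was read from these same counts, so a block on it lends the calls no separate support. With the title number as a block, 5 members were lower in Sox2Hi naive tumours, against 17.7% of genes called and 13.9% called lower. They were Ifit1 (-0.70, edgeR adjusted p = 0.019), Ifit2 (-0.81, 0.034), Ifit3 (-0.82, 0.020), Ifit3b (-0.82, 0.025) and Mx1 (-0.73, 0.019). Rsad2 was at -0.71 with the block and missed the threshold (edgeR adjusted p = 0.057). The libraries behind these values were 331 ± 96 against 206 ± 57 CPM for Ifit1, 139 ± 44 against 80.4 ± 22 for Ifit2, 238 ± 56 against 142 ± 51 for Ifit3 and 263 ± 65 against 166 ± 60 for Rsad2 (SD, n = 3). With the description number as a block, only Ifit2 (-0.78, edgeR adjusted p = 0.036) and Ifit3 (-0.79, 0.027) were called, beside 10.7% of genes called lower. The naive libraries carry the same numbers in titles and descriptions, so these blocks differ only in how treated libraries are numbered. Groups did not overlap in 5 of 8 members, where 21.8% of genes were lower without overlap, and Ifit3, Ifit3b and Cmpk2 overlapped. At an unadjusted p under 0.05, without a block, 6 of the 8 members were lower. No share of all genes at that threshold is given, so this count has no background beside it. The all-gene scaling called 0 of 9 members by edgeR, and 0 at an unadjusted p under 0.05, where 1.87% of genes were called. DESeq2 called 1 and limma-voom 4 of the 8, where they called 10.8% and 24.1% of genes lower.

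In treated tumours the 8 members were again lower in Sox2Hi neutrophils, from -1.06 in Ifit2 to -0.16 in Mx1, though Ifit1bl1, Cmpk2 and Mx1 turned above 0 with library totals and with factors from genes of at least 100 CPM. Only Ifit2 passed the test. Ifit2 averaged 908 ± 154 CPM in control treated and 434 ± 38 CPM in Sox2Hi treated libraries (SD, n = 2), a difference of -1.06 (SE 0.31; edgeR adjusted p = 0.035). Its Sox2Hi level was 0.478 times that of control (95% interval 0.299 to 0.765). Ifit3 averaged 793 ± 188 against 390.2 ± 118 CPM, a difference of -1.02 (SE 0.35; edgeR adjusted p = 0.062). Ifit1 was at -0.66 (SE 0.29; edgeR adjusted p = 0.12), with 857 ± 24 against 541 ± 44 CPM. With the title number as a block Ifit3 (-1.03, edgeR adjusted p = 0.014) and Ifit1 (-0.67, 0.034) were called as well as Ifit2 (-1.07, 0.020), where 9.83% of genes were called lower. With the description number Ifit3 was called (-1.07, 0.023) and Ifit2 was not (-0.88, 0.052), where 3.75% of genes were called lower. Same-numbered treated libraries correlated at -0.18, and with the Sox2Hi treated numbers crossed the same 3 genes were called, beside 8.29% of genes called lower. These 3 genes did not overlap between the grafts, but each group held only 2 libraries. Rsad2 was at -0.59 (SE 0.34; edgeR adjusted p = 0.24), Ifit3b at -0.72 (SE 0.36; edgeR adjusted p = 0.17), Cmpk2 at -0.27 (SE 0.34; edgeR adjusted p = 0.60) and Ifit1bl1 at -0.25 (SE 0.38; edgeR adjusted p = 0.67). When 1 library was left out, Rsad2 ran from -0.98 to -0.35 and Ifit3b from -0.98 to -0.67. Cmpk2 ran from -0.62 to -0.11 and Ifit1bl1 from -1.22 to 0.22.

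The single call stands beside 20.9% of genes called and 5.87% called lower. At an unadjusted p under 0.05, 3 of 8 members were lower, and no share of all genes at that threshold is given. Without overlap, 6 of 8 members were lower, against 26.3% of genes. The call of Ifit2 was lost under 9 of 24 alternatives, among them leaving out any of the 4 treated libraries, where it ran from -1.35 to -0.98, and its adjusted p ran up to 0.13. The all-gene scaling called 5 of 9 members lower (Ifit1, Ifit2, Ifit3, Ifit3b and Rsad2), against 13.7% of genes called and 9.57% called lower. Neutrophil markers moved in the same direction: 5 of 15 were lower in Sox2Hi treated libraries, whose summed level of 22479 to 22764 CPM compares with 40736 to 42506 in control treated libraries. Of the other markers Ly6c2 was lower (-1.42, edgeR adjusted p = 0.017), and the keratinocyte genes Krt8 (1.28, 0.0096) and Epcam (0.88, 0.024) and the fibroblast gene Col3a1 (1.83, 0.039) were higher. The part of these in the member values was not tested.

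**Figure D3:**
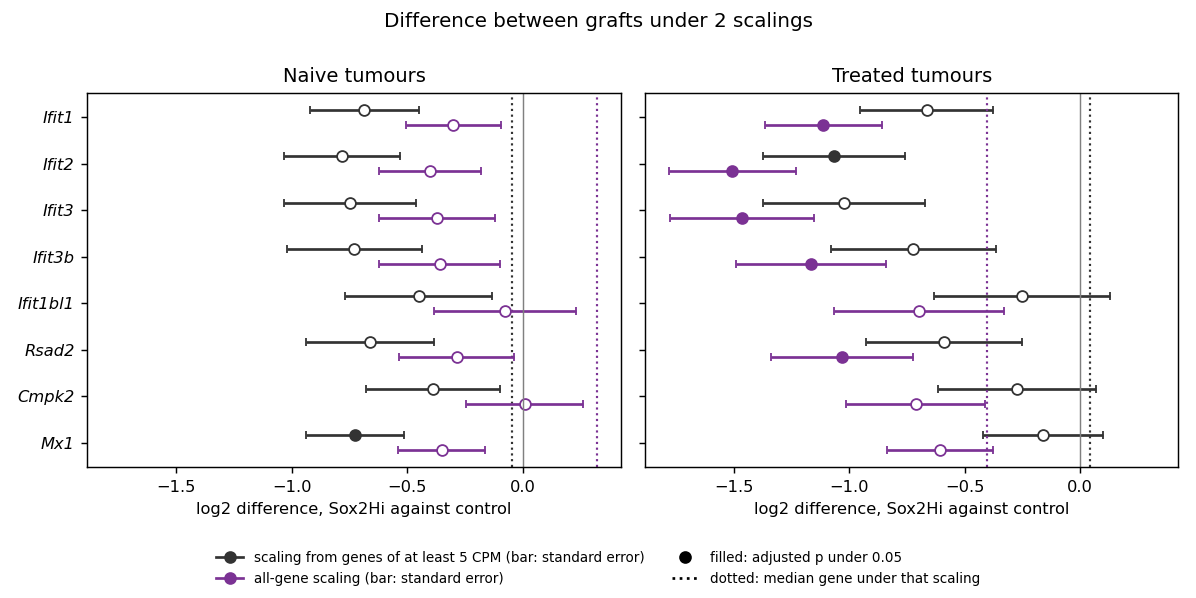
The plot gives the log2 difference of Sox2Hi against control for each tested member, with standard errors, in naive (left) and treated tumours (right), under the scaling from expressed genes (dark) and the all-gene scaling (purple). Filled points have an adjusted p under 0.05, and the dotted lines mark the median gene, which moves with the members.

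The size of the graft difference depended on the scaling. In treated tumours the all-gene scaling moved the median of the tested genes by -0.45, and the scaling from genes of at least 100 CPM moved it by 0.39. In naive tumours the same scalings moved it by 0.37 and -0.04. Relative to the median gene, the members' median was at -0.67 in treated and -0.66 in naive tumours. That distance stays nearly the same under other factors by construction, since they move all genes about alike, so it is no check on the difference.

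The interaction term asks whether the response to treatment differed between the grafts, and 0 of the 8 tested members passed it (edgeR), with 19.8% of genes called. At an unadjusted p under 0.05 the count was 0 as well, and DESeq2 and limma-voom called 0, where they called 29.8% and 24.4% of genes. The interaction values ran from -0.28 in Ifit2 to 0.57 in Mx1, with a median of 0.05 against 0.02 over all genes. For Ifit2 the 95% interval of the ratio of responses, Sox2Hi over control, was 0.451 to 1.503, and for Rsad2 it was 0.541 to 2.05. For Mx1 it was 0.887 to 2.47 (edgeR adjusted p = 0.28). The intervals are wide, and a p that misses the threshold does not show that the responses were alike. The all-gene scaling moved the median gene by -0.82 here and called 1 member lower, Ifit2 (-1.11, edgeR adjusted p = 0.036), where 27.5% of genes were called and 16.2% called lower. The 5 comparisons share libraries, so their values for a gene are not independent.

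Ratios of counts between members within a library do not depend on the scaling, though they do depend on background and on how reads are split. The ratio of Ifit3 to Ifit3b was 2.07, 2.21 and 2.03 in control naive libraries, and 4.59 and 3.99 after treatment. In Sox2Hi tumours it was 1.84, 2.42 and 2.25 in naive and 4.03 and 2.92 in treated libraries. All treated libraries were above all naive libraries, for a pair whose split of reads is uncertain. The ratio of Ifit2 to Ifit1 was 0.366 to 0.461 over control naive libraries, and 1.21 and 0.915 after treatment. Over Sox2Hi naive libraries it was 0.369 to 0.415, and 0.905 and 0.712 after treatment. These groups did not overlap either, for the pair with the largest and the smallest rise called in control tumours. Rsad2 over Cmpk2 averaged 26.8 ± 5.0 in naive (SD, n = 3) and 41.0 ± 7.2 in treated libraries (SD, n = 2) of the control graft. In the Sox2Hi graft it averaged 20.97 ± 7.3 and 32.2 ± 7.3, with overlap. After subtraction of the expected background, an alternative chosen after seeing the data, the control graft had 40.9, 25.1 and 34.6 before and 36.8 and 47.5 after treatment, which overlap. The other ratios still separated treated from naive libraries after that subtraction. The ratios are described without a test.

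**Figure D4:**
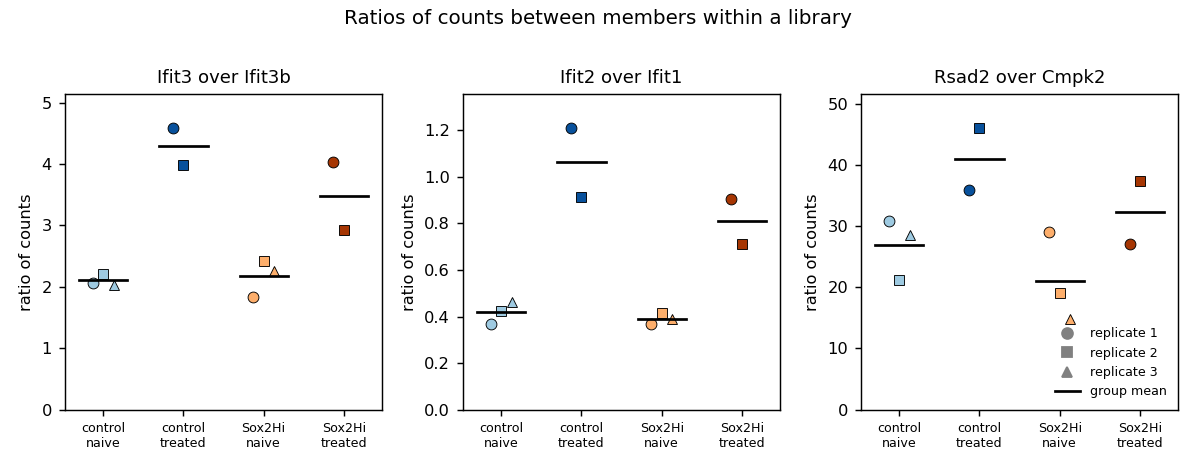
Each panel plots a ratio of counts in every library on a linear axis from 0, by group, with a bar at the group mean. The ratios of Ifit3 to Ifit3b and of Ifit2 to Ifit1 are higher in all 4 treated libraries than in all 6 naive libraries, and Rsad2 over Cmpk2, plotted without background subtraction, overlaps in Sox2Hi tumours.

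Within groups the members varied together in some libraries and not in others. Control naive replicate 2 was the highest of its group in 8 of 8 tested members, and Sox2Hi naive replicate 3 was the lowest of all 10 libraries in 8 of 8. The 2 Sox2Hi treated libraries were each the higher in 4 of the 8, and control naive replicates 1 and 3 were each the lowest of their group in 4. The mean log2(CPM + 1) over the members was 5.93, 6.48 and 5.91 in control naive and 5.79, 5.604 and 5.02 in Sox2Hi naive libraries. It was 7.73 and 7.497 in control treated and 7.10 and 6.90 in Sox2Hi treated libraries. Over the 28 pairs of members, Pearson's r across the 10 libraries ran from 0.565 to 0.984 with a median of 0.894, a description only, since all pairs share libraries and groups. After removal of group means the median was 0.697, and 26 of 28 were positive. The pair of Ifit1 and Rsad2, on different chromosomes, had 0.984 before and 0.931 after that removal, and Ifit3 with Ifit3b had 0.923 and 0.904. Ifit1bl1 was in the pairs below 0 after removal, with -0.01 against Rsad2 and -0.06 against Mx1. It was at 0.63 with Ifit3 and 0.51 with Ifit2.

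By the rule of highest r to the members' mean, among 7203 genes of at least 10 CPM, the 10 nearest genes were Zfp992, Xdh, Slfn8, Trpm2, Armc3, Herc6, Trim12a, Trim30a, Ddx60 and Rtp4. Their r over the 10 libraries ran from 0.982 in Rtp4 to 0.987 in Zfp992. Xdh encodes xanthine dehydrogenase, and it had the highest r after removal of group means, 0.968. The nearest gene to a given member was Fcgr4 for Ifit1 (0.983), Herc6 for Ifit2 (0.995), Trpm2 for Ifit3 (0.988), Trex1 for Rsad2 (0.991) and Gbp5 for Cmpk2 (0.973). For Mx1 it was Wdfy2 (0.948). The nearest other member was Rsad2 for Ifit1 and for Ifit2, and Ifit3b for Mx1.

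Upstream of the members, none of 10 interferon ligand genes reached a mean of 5 CPM over the 10 libraries. Ifnb1 was at 0.215 CPM in control naive and 0.0298 CPM in control treated libraries on average, and it never had more than 6 reads. Ifna1, Ifna2, Ifna4, Ifna5, Ifne, Ifnk, Ifnl2 and Ifnl3 had at most 14 reads in any library. Ifng, the type II interferon, averaged 0.582 ± 0.41 CPM over naive (SD, n = 3) and 7.41 ± 8.1 CPM over treated libraries (SD, n = 2) of the control graft. With the Sox2Hi graft it averaged 0.471 ± 0.22 and 4.79 ± 0.70 CPM. The SD of its control treated pair exceeds the mean. Under the all-gene scaling, which tested 3 of the ligand genes, Ifng was the 1 called, higher with treatment by 4.32 (SE 0.72; edgeR adjusted p = 0.00089) in control and 3.08 (SE 0.74; edgeR adjusted p = 0.045) in Sox2Hi tumours. Ifng is a transcript of T and NK cells, whose marker sums are given above, and their part in this value was not tested.

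Of the 10 receptor and signalling genes, 8 rose with treatment in control tumours and 7 in Sox2Hi tumours, beside 24.1% and 15.0% of all genes called higher. The all-gene scaling also called 8 in control tumours but only 3 in Sox2Hi tumours, where it called 1.79% of genes higher. In control tumours Irf7, a factor that amplifies interferon production, rose by 1.92 (SE 0.29), Irf1 by 1.56 (SE 0.25) and Stat2 by 1.52 (SE 0.22). Ifnar2 rose by 1.25 (SE 0.21), Ifnar1 by 0.96 (SE 0.19), Irf9 by 0.95 (SE 0.19) and Jak1 by 0.82 (SE 0.17), with edgeR adjusted p-values of 0.0027 or less in these 7. Tyk2 was at 0.01 (edgeR adjusted p = 0.97) and Irf3 at -0.07 (edgeR adjusted p = 0.80). In Sox2Hi tumours Irf1 rose by 1.502 (SE 0.25), Irf7 by 1.33 (SE 0.28), Stat2 by 1.16 (SE 0.22), Ifnar2 by 0.76 (SE 0.21), Irf9 by 0.75 (SE 0.19) and Tyk2 by 0.59 (SE 0.19). Ifnar1 (0.33), Jak1 (0.27) and Irf3 (-0.26) did not pass there. Between the grafts 0 of the 10 were called by edgeR in naive or in treated tumours, where 14.0% and 20.9% of all genes were called. At an unadjusted p under 0.05 it was 1 in each. DESeq2 called 0 in naive and 1 in treated tumours, limma-voom 3 and 0, and the all-gene scaling 2, higher in Sox2Hi, and 6, lower. Of all genes, DESeq2 called 16.6% and 27.9%, limma-voom 36.6% and 15.8%, and the all-gene scaling 1.87% and 13.7%. In the interaction edgeR called 0 of the 10, with 1 at an unadjusted p under 0.05, against 2 with DESeq2, 1 with limma-voom and 7, all lower, with the all-gene scaling. In the same order, these settings called 19.8%, 29.8%, 24.4% and 27.5% of all genes.

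Of the feedback genes, which restrain the pathway, Usp18 rose by 1.51 (SE 0.20), Irf2 by 2.04 (SE 0.28) and Socs3 by 0.63 (SE 0.21) in control tumours (edgeR adjusted p = 0.00029, 0.00033 and 0.024). In Sox2Hi tumours Usp18 rose by 1.14 (SE 0.20) and Irf2 by 1.46 (SE 0.28), and Socs3 at 0.64 just missed (edgeR adjusted p = 0.052). Socs1 missed a mean of 5 CPM over the 10 libraries and was not tested, with group means of 3.73 CPM in control naive and 7.58 CPM in control treated libraries. Between the grafts edgeR called 0 of the 3 tested feedback genes, with 0 in naive and 1 in treated tumours at an unadjusted p under 0.05. DESeq2 called 0 and 1, limma-voom 0 and 0, and the all-gene scaling 0 and 2 of 4. Of all genes, edgeR called 14.0% in naive and 20.9% in treated tumours, and DESeq2 16.6% and 27.9%. The shares were 36.6% and 15.8% with limma-voom, and 1.87% and 13.7% with the all-gene scaling.

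Among 35 other antiviral effectors, 34 rose in control tumours and 31 in Sox2Hi tumours, with medians of 1.43 and 1.34, beside 24.1% and 15.0% of all genes called higher. With the all-gene scaling it was 34 and 22. The largest in control tumours were Oasl1 (2.61, SE 0.37), Zbp1 (2.41, SE 0.23), Rtp4 (2.38, SE 0.28) and Xaf1 (2.36, SE 0.15). All 15 interferon-inducible GTPases rose in both grafts, under either scaling, with medians of 2.54 and 2.31, and Gbp10 (5.33, SE 0.29), Gbp8 (5.28, SE 0.26), and Gbp4 (4.76, SE 0.29) led in control tumours. These GTPases respond to interferon gamma as well as to type I interferon. The medians of the 8 members, 1.56 and 1.48, lay between those of the other effectors and the GTPases in both grafts. Treated Sox2Hi tumours had 5 of the 35 effectors lower than treated control tumours, namely Ifitm1 (-1.03), Rtp4 (-1.02), Xaf1 (-0.98), Isg20 (-0.93) and Ifitm3 (-0.65). Of the 15 GTPases 5 were lower there, Gbp8 (-1.28), Gbp6 (-1.21), Gbp10 (-1.19), Gbp4 (-0.93) and Irgm1 (-0.80). Over all genes 5.87% were called lower. These counts depended on the setting: effectors called were 23 with the all-gene scaling, 16 with DESeq2 and 5 with limma-voom, and GTPases 13, 11 and 3, where these settings called 9.57%, 16.2% and 3.89% of genes lower. At an unadjusted p under 0.05 the scaling used here had 16 effectors and 10 GTPases, with no share of all genes at that threshold to set beside them. In naive tumours 3 effectors were lower in Sox2Hi, Xaf1 (-0.63), Ifitm3 (-0.57) and Eif2ak2 (-0.55), and 1 GTPase, Iigp1 (-0.77), where 11.9% of all genes were called lower. In the same order of settings the effectors called were 0, 2 and 10 and the GTPases 0, 1 and 2, where 0.209%, 10.8% and 24.1% of genes were called lower. At an unadjusted p under 0.05 11 effectors and 9 GTPases were lower in Sox2Hi with the scaling used here, while the all-gene scaling had 3 effectors, all of them higher, and 0 GTPases. These counts too have no share of all genes beside them. Of the 63 signalling, feedback, effector and GTPase genes tested, edgeR called 0 in the interaction, with 3 at an unadjusted p under 0.05. DESeq2 called 6 and limma-voom 2, and the all-gene scaling, which moves the median gene by -0.82, called 43 of 64. Of all genes, edgeR called 19.8% in the interaction, DESeq2 29.8%, limma-voom 24.4% and the all-gene scaling 27.5%.

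**Figure D5:**
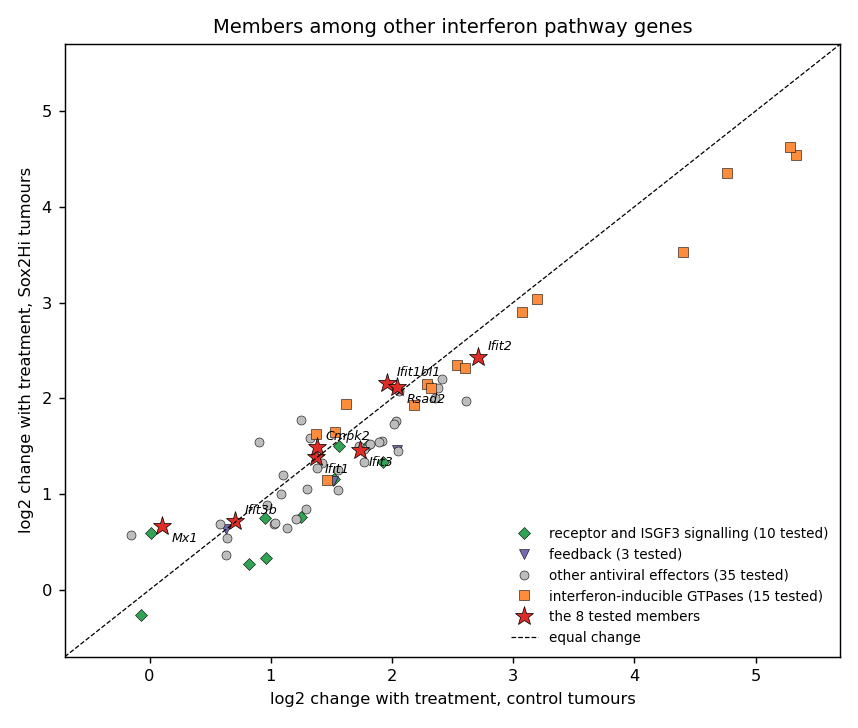
Each point is a gene, with its log2 change with treatment in control tumours on the x axis and in Sox2Hi tumours on the y axis, and stars mark the 8 tested members. The members run from Mx1 at the lower left to Ifit2 at 2.71 and 2.43, among the other effectors and below the most strongly raised GTPases, Gbp10 and Gbp8.

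Genes beside the clusters were read from the annotation, the nearest 2 protein-coding genes on each side. Rnf144a, a ubiquitin ligase gene beside Rsad2, rose with treatment by 1.65 (SE 0.32; edgeR adjusted p = 0.0016) in control and 1.42 (SE 0.32; edgeR adjusted p = 0.015) in Sox2Hi tumours. Expected background equalled 4.46% to 51.1% of its reads. Lipa, a lysosomal lipase gene beside the Ifit cluster, rose by 1.32 (SE 0.22; edgeR adjusted p = 0.00075) in control tumours and was at 0.50 (edgeR adjusted p = 0.11) in Sox2Hi tumours. Id2, on the far side of Rnf144a, rose by 1.204 (SE 0.28; edgeR adjusted p = 0.0045) in control tumours and was at 0.57 (edgeR adjusted p = 0.16) in Sox2Hi tumours. Pank1 (-1.33), Ripk4 (-1.10) and Dcdc2c (-0.98) fell in control tumours, and were at -0.091, -0.38 and 0.53 without a call in Sox2Hi tumours. The interaction was called for Pank1 (1.24, edgeR adjusted p = 0.0083) and Dcdc2c (1.51, 0.026). Expected background equalled 30.2% to 74.6% of the reads of Pank1, 14.0% to 29.6% of those of Dcdc2c and 5.31% to 21.5% of those of Ripk4, and its part in these values was not tested. Between treated grafts Pank1 (0.99, edgeR adjusted p = 0.014), Dcdc2c (1.22, 0.027) and Ripk4 (0.91, 0.040) were higher in Sox2Hi. Sox11 did not pass with treatment in control tumours (-0.68, edgeR adjusted p = 0.091), and it was lower in Sox2Hi than in control tumours, naive (-1.57, 0.013) and treated (-1.40, 0.023). Ch25h, an oxysterol enzyme gene next to Lipa, averaged 1.45 CPM and was not tested, as were Slc16a12, Dscam, Bace2, Tmprss2 and Fam3b, the last of which lies between the Mx genes.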

How the data were processed

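Bulk RNA-seq of 10 neutrophil libraries was analysed from the authors' deposited table of estimated counts per gene. The submitters' processing notes name kallisto 0.44.0 and the build mm10. The strand setting is not given in the sources used here. The deposited values are whole numbers, and the 4 with more than 6 digits all end in 0, so they may be rounded estimates. The 96 sequences that are not mouse genes (0.000992% to 0.00277% of counts) were kept out. GENCODE M21 (GRCm38) gave symbols and positions for 55144 of 55385 identifiers.

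All 10 libraries entered a single edgeR 4.0.16 model (R 4.3.3) with the 4 groups as terms, over genes averaging 5 CPM or more, which also gave the TMM factors. The quasi-likelihood F-test gave 5 contrasts, and calls were made at a Benjamini-Hochberg adjusted p under 0.05 across all 11274 genes. Shares of all genes are given for adjusted calls and for groups without overlap, and not for an unadjusted p. A standard error is the log2 change over the square root of its F. The common biological coefficient of variation was 0.212. Recovery was tested on simulated data: in treated tumours between the grafts, 29% of genes changed by 1 and 97% of those changed by 2 on the log2 scale were called. The simulated counts took their spread from its trend over genes, and only 100 genes were changed by each size. Differences in background between groups were not simulated, so recovery in the real libraries may differ. Expected background is the median count per kb over 1464 silent receptor genes times exon length. Promoters came from RefSeq. Alternatives were other scalings and filters, DESeq2 1.42.0, limma-voom (limma 3.58.1), replicate blocks, background subtraction, the compared groups alone and leaving out each library. No replicate pair agreed within sampling noise (chi-square per degree of freedom at least 12.5).

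Title numbers were taken to pair the naive libraries: the correlations of their deviations from group means were 0.334, 0.333 and 0.422. This check is the source of the pairing, as no label explains the numbers. The members, gene lists, markers and scaling were chosen with earlier results of these data known. Named genes were the 9 members, the ligand, signalling and feedback lists, up to 4 called genes of largest change in each other list, the nearest 2 protein-coding genes on each side of a cluster, and the genes most correlated with the members. The fifth effector and GTPase lower in treated tumours, Ifitm3 and Irgm1, were named after their values were seen. Some genes that this rule selects are not reported here.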

Additional observations from a re-analysis of the deposited data

How the results depend on the processing

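The 6 treatment calls in control tumours held in all 24 alternatives, and the count called ran from 6 to 7 when each library was left out. In Sox2Hi tumours it ran from 3 to 8 over the same omissions, and between the grafts from 0 to 2 in naive and from 0 to 2 in treated tumours. In the interaction it was 0 in each. The cause of the differences below was not tested. In naive tumours the count of members differing between the grafts, 1 in the report, was 0 with the all-gene scaling, genes of at least 1 CPM, no filter, RLE factors, library totals, the compared groups alone and background subtraction, and 4 with limma-voom. Of all genes, 11.9% were called lower in the report, 0.209%, 2.14%, 0.0376%, 6.55%, 6.26%, 0.0266% and 6.7% in the first 7 of these settings, and 24.1% with limma-voom. In treated tumours, where it was also 1, it was 5 with the all-gene scaling, 4 with genes of at least 1 CPM, 5 with no filter, 2 with RLE factors, 3 with DESeq2, and 0 with library totals, factors from genes of at least 100 CPM, background subtraction and limma-voom. Beside 5.87% of genes called lower in the report, these settings called 9.57%, 10.5%, 5.03%, 11.6%, 16.2%, 1.7%, 1.14%, 3.01% and 3.89% lower. In the interaction, where it was 0, it was 1 with the all-gene scaling and 2 with no filter, all lower, and 1, higher, with factors from genes of at least 100 CPM. Those settings called 16.2% and 9.59% of genes lower and 25.5% higher.

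With the replicate block by title number, 5 members were called between the grafts in naive and 3 in treated tumours, where 13.9% and 9.83% of genes were called lower. With the block by description number, which numbers the naive libraries alike, it was 2 in naive tumours, where 10.7% were called lower. The block on the naive libraries alone, added after seeing the data, also gave 5, where 13.7% of genes were called lower. Same-numbered treated libraries correlated at -0.18, so a crossed pairing was added after seeing the data. It gave 5 in naive and 3 in treated tumours, where 13.6% and 8.29% of genes were called lower. Under the block by title and the crossed block, the change of Mx1 with treatment in control tumours was -0.046 and -0.045. With the block by description, Cmpk2 was at 0.11 between the treated grafts and Ifit3b at -0.014 in the interaction. The block moved no other count of members called by over 1.5 times.

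Other signs turned as follows. Mx1 in control treatment was -0.40 with library totals and -0.44 with factors from genes of at least 100 CPM. In naive tumours Ifit1bl1 was 0.022 with no filter, and Cmpk2 was 0.0091 with the all-gene scaling, 0.13 with no filter and 0.15 with limma-voom. In treated tumours Ifit1bl1, Cmpk2 and Mx1 were 0.11, 0.023 and 0.13 with library totals, and 0.17, 0.11 and 0.22 with factors from genes of at least 100 CPM. In the interaction, values for Ifit1, Ifit3b, Ifit1bl1, Rsad2, Cmpk2 and Mx1 were -0.81, -0.81, -0.62, -0.75, -0.72 and -0.26 with the all-gene scaling. They were -0.59, -0.59, -0.40, -0.53, -0.50 and -0.038 with genes of at least 1 CPM, and -1.04, -1.03, -0.83, -0.97, -0.95 and -0.47 with no filter. The first 5 were -0.21, -0.23, -0.040, -0.16 and -0.11 with RLE factors, and the same to 2 decimals with DESeq2. With limma-voom Ifit1, Ifit1bl1, Rsad2 and Cmpk2 were -0.21, -0.25, -0.21 and -0.40, and with factors from genes of at least 100 CPM Ifit2 and Ifit3 were 0.16 and 0.17. Leaving out each library in turn, the range was -0.039 to 0.28 for Mx1 in control treatment, -0.61 to 0.13 for Cmpk2 between naive grafts and -1.22 to 0.22 for Ifit1bl1 between treated grafts. In the interaction it was -0.35 to 0.19 for Ifit1, -0.71 to 0.012 for Ifit3, -0.34 to 0.47 for Ifit3b, -0.77 to 0.58 for Ifit1bl1, -0.41 to 0.31 for Rsad2 and -0.43 to 0.33 for Cmpk2.

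Precision was limited by 2 treated libraries per graft and, for Mx1 and Mx2, by at most 136 and 64 reads.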
